A study of Mus musculus with 9 samples.

Results

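The enzymes that make, break down and respond to the cyclic nucleotides cAMP and cGMP were followed in mouse brain across 3 groups of 3 arrays. The groups were 5xFAD mice injected with human amylin (amylin 5xFAD below, APP-amylin in the plots), 5xFAD mice injected with phosphate-buffered saline (PBS 5xFAD, APP-PBS) and wild-type mice injected with the same saline (WT). The wild-type genotype is given as B6SJLF1/J and the other as 5x FAD, with no strain named for the 5x FAD mice, and mice of all 3 groups were about 5 months old and had daily intraperitoneal injections for 10 weeks. As background, the 5xFAD line expresses human transgenes in neurons under the Thy1 promoter and forms amyloid plaques, and amylin is a hormone that beta cells of the pancreas release with insulin. Members were found by gene symbol (phosphodiesterases Pde, adenylyl cyclases Adcy, guanylyl cyclases Gucy, subunits of protein kinase A and protein kinase G). Of the 19938 genes with a single-gene probe set, 51 fitted the rule, which was chosen with earlier results of these data known. They comprise 24 phosphodiesterase genes, 10 adenylyl cyclases, 9 guanylyl cyclases or cyclase subunits, 7 kinase subunits and Pde4dip (myomegalin), an anchoring protein whose symbol fits the rule although it is no enzyme. The RefSeq gene table holds 53 symbols that fit: Prkaca, the alpha catalytic subunit of protein kinase A, shares its probe set with Samd1, and Prkaca-ps1 has no probe set of its own.

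Adenylyl cyclases make cAMP when stimulatory G proteins, or calcium with calmodulin for some isoforms, act on them. Guanylyl cyclases make cGMP in response to nitric oxide (the soluble alpha and beta subunits) or peptides (some of the membrane receptors). Phosphodiesterases hydrolyse either or both nucleotides and differ in substrate and regulation. In the brain cAMP acts largely through protein kinase A, a tetramer of regulatory and catalytic subunits, and in striatal projection neurons dopamine and adenosine receptors act on this pathway.

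Values are log2 intensities after robust multi-array averaging (RMA), differences are log2 differences between group means with the standard error (SE) of 1 limma fit of all 9 arrays, and a gene was called at a Benjamini-Hochberg adjusted p under 0.05 over all 19938 genes. Means carry their SD, with n = 3 arrays a group. Array medians lay between 5.71 and 5.79, and the median SE of a difference over all genes was 0.07, so the number of arrays limits the precision. The labels call the arrays of a group biological replicates without saying whether each is 1 mouse, so the tests measure the spread between these samples. Probe sets differ in their response, so the level of 1 gene is not set against that of another, and 7 members (Adcy10, Gucy1b2, Gucy2f, Gucy2g, Pde6a, Pde6b and Pde6c) lie among the lowest 25% of genes by mean intensity. The marker and pathway lists used below were also chosen with earlier results of these data known, so their counts are descriptions. The tissue is given as brain in the sample labels and as cortex in the series description, and marker genes of other brain regions differed between the 5xFAD and WT arrays. The labels do not say whether the same region was dissected in every group, so for the members below a difference between mice and a difference in the tissue taken cannot be told apart. In bulk tissue fewer cells of a type and less RNA per cell cannot be told apart.

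Between PBS 5xFAD and WT, 10 members rose and 3 fell. The increases were led by Pde10a, Adcy5, Pde1b and Pde7b, and the decreases were in Adcy8, Pde11a and Prkar1b. The 13 called members make 25.5% of the 51, against 8.58% of all genes called in this comparison. The members were chosen with earlier results of these data known, so this share is a description. Of the 51 members, 17 lie among the lowest 50% of genes by mean intensity. In the fit without that 50%, 1788 of 9969 genes were called in this comparison, a larger share than the 8.58% of all genes. The part of signal level in the members' share was not tested. The 10 that rose are 19.6% of the members where 3.66% of all genes rose, and the 3 that fell are 5.88% where 4.92% of all genes fell, so the share of members that fell was near that of all genes. Every array of PBS 5xFAD lay above every WT array for 12 members and below every WT array for 9, together 41.2% of the members, where 26.8% of all genes had groups that did not overlap. The median difference over the 51 members was -0.03, and over all genes it was -0.01. Of the 38 members that were not called, Adcy1 had the lowest difference, -0.39, and Pde1c the highest, 0.42.

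**Figure D1:**
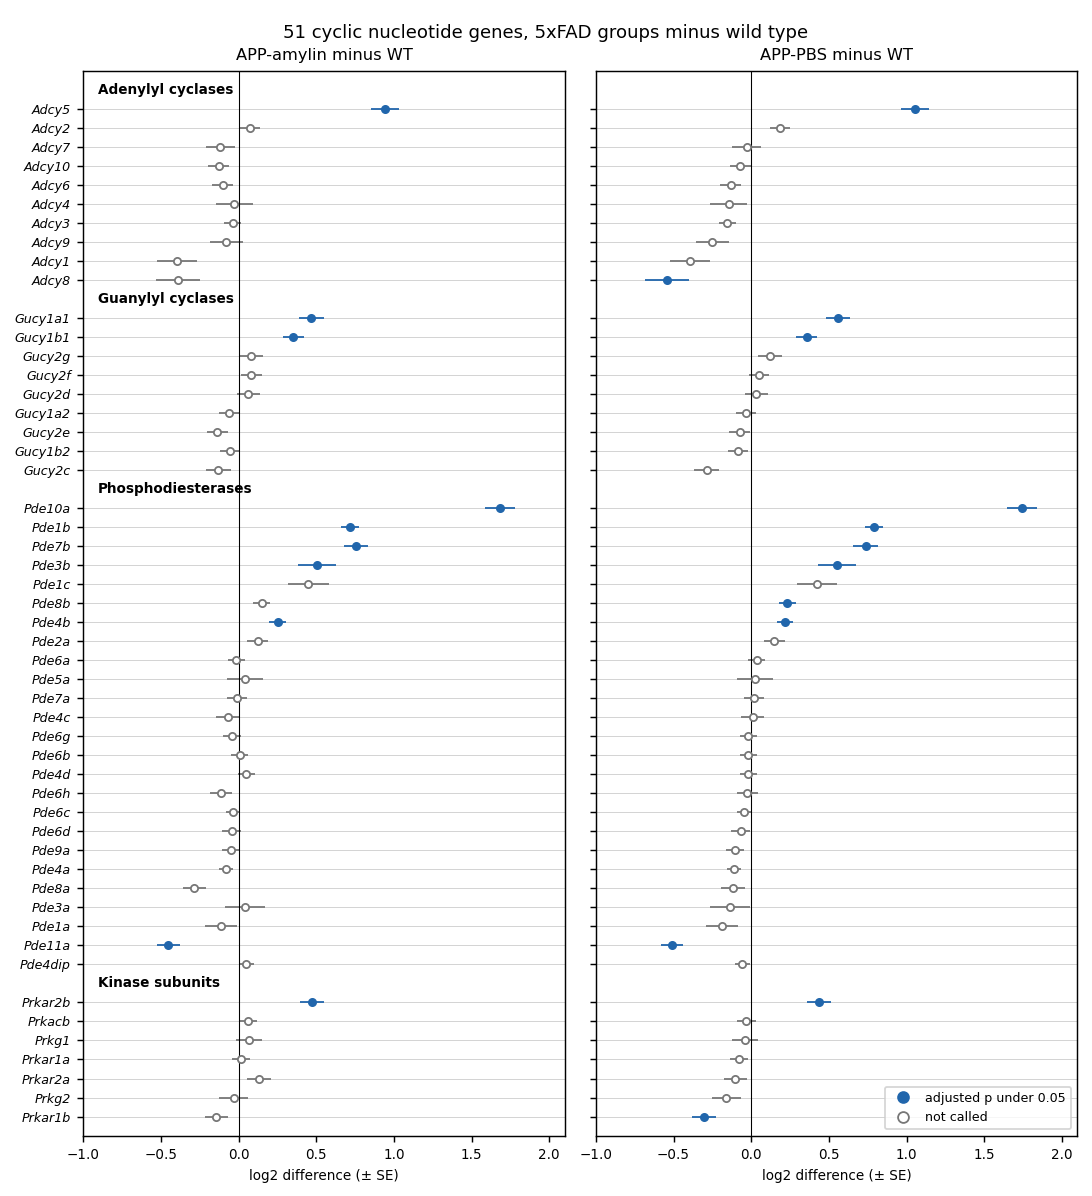
Log2 difference ± SE of each of the 51 members, in amylin 5xFAD minus WT (left panel) and PBS 5xFAD minus WT (right panel), grouped by enzyme class. Filled points passed an adjusted p of 0.05. Pde10a stands farthest to the right in both panels, at 1.68 and 1.74, and most members lie near 0.

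Promoters of members that moved are shown for the sequence context of the genes described next. The windows are from RefSeq (GRCm38.p6) and run from 250 bases before to 50 after a transcription start. Pde10a, Adcy5 and Gucy1b1 represent members that rose and Pde11a one that fell, and capitals mark the GC box (GGGCGG or its complement CCGCCC) and the 5-letter core of the cAMP response element (TGACG or its complement CGTCA).
Pde10a, chr17:8801495-8801794, plus strand: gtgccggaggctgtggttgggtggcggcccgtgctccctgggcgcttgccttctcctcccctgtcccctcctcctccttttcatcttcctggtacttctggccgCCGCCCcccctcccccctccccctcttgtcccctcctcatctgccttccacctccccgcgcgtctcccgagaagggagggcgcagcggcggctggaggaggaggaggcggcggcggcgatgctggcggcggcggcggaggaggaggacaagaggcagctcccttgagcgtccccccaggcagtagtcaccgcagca
Adcy5, chr16:35154614-35154913, plus strand: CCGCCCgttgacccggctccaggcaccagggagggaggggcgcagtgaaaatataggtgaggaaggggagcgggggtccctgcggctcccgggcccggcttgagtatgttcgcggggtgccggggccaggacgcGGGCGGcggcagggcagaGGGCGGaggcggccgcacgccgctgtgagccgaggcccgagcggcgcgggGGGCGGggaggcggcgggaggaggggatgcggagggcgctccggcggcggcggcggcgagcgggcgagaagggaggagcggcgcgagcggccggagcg
Gucy1b1, chr3:82074662-82074961, minus strand: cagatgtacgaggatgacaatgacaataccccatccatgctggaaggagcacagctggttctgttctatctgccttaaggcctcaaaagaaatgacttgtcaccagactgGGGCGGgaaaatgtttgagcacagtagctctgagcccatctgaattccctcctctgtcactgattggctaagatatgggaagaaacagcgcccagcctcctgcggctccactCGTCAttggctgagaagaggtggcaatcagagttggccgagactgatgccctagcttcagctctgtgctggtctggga
Pde11a, chr2:76338889-76339188, minus strand: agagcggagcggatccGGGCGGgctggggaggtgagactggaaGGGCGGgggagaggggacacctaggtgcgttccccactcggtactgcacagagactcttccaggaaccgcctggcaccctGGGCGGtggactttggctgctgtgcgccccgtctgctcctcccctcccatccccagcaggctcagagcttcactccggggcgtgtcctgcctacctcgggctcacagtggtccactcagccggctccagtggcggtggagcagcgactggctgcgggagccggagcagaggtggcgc
The Adcy5 window holds 4 GC boxes, that of Pde11a 3, and those of Pde10a and Gucy1b1 1 each. Another Pde10a window, chr17:8849735-8850034, is not printed and holds 1 GC box and 0 cores. Of these windows, that of Gucy1b1 alone has this core, on the complementary strand. Motifs were searched on both strands, and the core also counts where it is part of the full element TGACGTCA. Of the 51 members, 40 matched at least 1 RefSeq window, 80 windows in all. The core was in 22.5% of the members' windows and in 20.8% of all 32851 windows, the full element in 2.5% and 1.79%, and the GC box in 42.5% and 35.7%. Among the 21 windows of 9 members that rose, 3 held the core (14.3%), 9 the GC box (42.9%) and 0 the full element. Windows of 1 gene can overlap, as among the 5 of Pde8b, so the same bases can be counted more than once. The members' windows with the full element are 2 overlapping windows of Prkar1a. A match in these letters is a description and says nothing of binding.

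Among the adenylyl cyclases 1 of 10 rose and 1 fell. Over all genes 3.66% rose and 4.92% fell in PBS 5xFAD against WT, and in classes of 7 to 24 genes a single call is a large share. Adcy5, the main adenylyl cyclase of striatal projection neurons, had log2 intensities of 9.46, 9.58 and 9.56 in amylin 5xFAD, 9.79, 9.46 and 9.69 in PBS 5xFAD, and 8.64, 8.45 and 8.67 in WT. All 6 arrays of 5xFAD mice lay above all WT arrays, and the 5xFAD groups overlapped. The mean was 9.64 ± 0.17 in PBS 5xFAD and 8.59 ± 0.12 in WT, which is 2.08-fold higher in PBS 5xFAD, or 1.06 ± 0.09 on the log2 scale (adjusted p = 0.000258). Striatal markers moved with it: 11 of 11 rose, with a median difference of 1.47. Adcy8, a cyclase stimulated by calcium and calmodulin, read 7.29, 7.24 and 7.34 in amylin 5xFAD, 7.47, 6.76 and 7.19 in PBS 5xFAD, and 7.73, 7.67 and 7.64 in WT. Every 5xFAD array was below the WT arrays, and the PBS 5xFAD arrays were spread over the widest range, with the second the lowest. Adcy8 fell by 0.54 ± 0.14 in PBS 5xFAD against WT, 1.46-fold lower (adjusted p = 0.0448). This call was lost when any WT array, any amylin 5xFAD array or the third PBS 5xFAD array was left out, at adjusted p from 0.0643 to 0.156.

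The other adenylyl cyclases were not called. Adcy1, also stimulated by calcium and calmodulin, had 9.52, 9.69 and 9.37 in amylin 5xFAD, 9.21, 9.69 and 9.69 in PBS 5xFAD, and 9.87, 10.00 and 9.91 in WT. Its 5xFAD arrays all read below WT, yet the difference of PBS 5xFAD from WT, -0.39 ± 0.13, had an adjusted p of 0.102. Adcy2, an isoform stimulated by G protein beta-gamma subunits, read 9.60, 9.58 and 9.63 in amylin 5xFAD, 9.60, 9.83 and 9.73 in PBS 5xFAD, and 9.46, 9.61 and 9.52 in WT. The groups overlapped, and the difference of PBS 5xFAD from WT was 0.19 ± 0.07 (adjusted p = 0.137). For Adcy3, the cyclase of olfactory cilia and of neuronal primary cilia, the arrays read 7.95, 8.03 and 7.95 in amylin 5xFAD, 7.85, 7.82 and 7.91 in PBS 5xFAD, and 8.10, 8.00 and 7.95 in WT. The PBS 5xFAD arrays were the lowest of the 9, with a difference from WT of -0.16 ± 0.06 (adjusted p = 0.131). Adcy9 differed by -0.25 ± 0.11 (adjusted p = 0.217), and Adcy4, Adcy6, Adcy7 and Adcy10 by -0.15 to -0.03. In all, 8 of the 10 adenylyl cyclases had a lower mean in PBS 5xFAD than in WT, with a median difference of -0.14. Over all 19938 genes, 10795 had a lower mean.

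Of the 9 guanylyl cyclase genes 2 rose, and they encode the alpha and beta subunits of the main soluble cyclase, the receptor of nitric oxide. Gucy1a1 read 9.01, 8.87 and 9.03 in amylin 5xFAD, 9.18, 8.93 and 9.07 in PBS 5xFAD, and 8.44, 8.46 and 8.62 in WT. Gucy1b1 read 9.80, 9.68 and 9.90 in amylin 5xFAD, 9.80, 9.84 and 9.75 in PBS 5xFAD, and 9.34, 9.52 and 9.46 in WT. For both subunits the 6 arrays of 5xFAD mice were above all WT arrays. Gucy1a1 rose by 0.56 ± 0.08 in PBS 5xFAD against WT, 1.47-fold (adjusted p = 0.00295). The rise of Gucy1b1 was 0.36 ± 0.07, 1.28-fold (adjusted p = 0.0131). Without the first WT array Gucy1b1 was no longer called (adjusted p = 0.0553). The 2 genes are neighbouring protein-coding genes on chromosome 3, and the remaining soluble subunits did not pass the test: Gucy1a2 differed by -0.03 and Gucy1b2 by -0.08.

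Of the 5 receptor-type guanylyl cyclases, 0 passed the limma test between PBS 5xFAD and WT, and 1 stood at an unadjusted p under 0.05. That is 20.0% of them, near the 21.2% of all genes at such a p in this comparison. Gucy2c, the intestinal receptor of guanylin, had low intensities of 4.77, 4.77 and 4.75 in amylin 5xFAD, 4.63, 4.76 and 4.43 in PBS 5xFAD, and 4.97, 4.89 and 4.82 in WT. All 5xFAD arrays were below WT, and the difference of PBS 5xFAD from WT was -0.29 ± 0.08 (adjusted p = 0.061), the value nearest the threshold among the members not called. Leaving out the second PBS 5xFAD array brought Gucy2c past the threshold (adjusted p = 0.0265). Gucy2d, Gucy2e, Gucy2f and Gucy2g, known in the mouse from olfactory neurons or the retina, differed by -0.07 to 0.12.

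Phosphodiesterases held the largest difference among the members. Of the 24 genes, 6 rose and 1 fell in PBS 5xFAD against WT, and 12 had a higher mean, where 9141 of all 19938 genes had one. Pde10a, which hydrolyses both nucleotides and is abundant in striatal projection neurons, read 9.90, 9.91 and 9.97 in amylin 5xFAD, 10.03, 9.89 and 10.03 in PBS 5xFAD, and 8.09, 8.15 and 8.49 in WT. The 5xFAD arrays lay close together and far above WT, and the spread was widest within WT. The mean was 9.99 ± 0.08 in PBS 5xFAD and 8.24 ± 0.22 in WT, 3.35-fold higher with an SE of 0.10 on the log2 scale (adjusted p = 3e-05). Pde1b, activated by calcium and calmodulin and also rich in striatum, read 9.96, 9.95 and 10.03 in amylin 5xFAD, 10.14, 9.99 and 10.05 in PBS 5xFAD, and 9.33, 9.19 and 9.28 in WT. It rose by 0.79 ± 0.06 in PBS 5xFAD against WT, 1.73-fold (adjusted p = 0.000101), with no overlap between 5xFAD and WT arrays. Pde7b, a cAMP-specific enzyme, had 9.95, 9.63 and 9.76 in amylin 5xFAD, 9.76, 9.80 and 9.72 in PBS 5xFAD, and 8.94, 9.07 and 9.05 in WT. The rise in PBS 5xFAD over WT was 0.74 ± 0.08, 1.67-fold (adjusted p = 0.000712), again without overlap. The striatal markers, of which 11 of 11 rose with a median of 1.47, moved with all 3 of these genes between PBS 5xFAD and WT. Within PBS 5xFAD the second array had the lowest striatal mean, the lowest Pde10a and Pde1b, and the highest Pde7b.

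Smaller increases were found in 3 further phosphodiesterases that act mainly on cAMP. Pde3b, which cGMP inhibits and which insulin signalling activates in fat cells, read 7.17, 7.44 and 7.28 in amylin 5xFAD, 7.10, 7.31 and 7.62 in PBS 5xFAD, and 6.70, 6.81 and 6.86 in WT. It was spread widely within PBS 5xFAD and still above WT in each 5xFAD array, with a difference of PBS 5xFAD from WT of 0.55 ± 0.12, 1.47-fold (adjusted p = 0.0227). Pde8b, of high affinity for cAMP, read 9.08, 9.13 and 9.09 in amylin 5xFAD, 9.13, 9.24 and 9.18 in PBS 5xFAD, and 8.86, 9.01 and 8.98 in WT. Pde4b, an isoform of the rolipram-sensitive Pde4 genes, read 8.82, 8.76 and 8.88 in amylin 5xFAD, 8.82, 8.82 and 8.73 in PBS 5xFAD, and 8.57, 8.54 and 8.60 in WT. In PBS 5xFAD against WT, Pde8b rose by 0.23 ± 0.06 (1.17-fold, adjusted p = 0.032) and Pde4b by 0.22 ± 0.05 (1.16-fold, adjusted p = 0.0321). The WT arrays did not overlap with those of 5xFAD mice for either gene. These calls depended on single arrays. Pde3b was lost without any WT array or without the second or the third PBS 5xFAD array (adjusted p from 0.0515 to 0.099). Pde4b was lost without any WT array or without the first or second PBS 5xFAD array (0.0727 to 0.105). Pde8b was lost without the first or the third WT array or the second or the third PBS 5xFAD array (0.0734 to 0.113).

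Pde11a, which hydrolyses both nucleotides and in mouse brain is found chiefly in the hippocampal formation, read 6.27, 6.18 and 6.09 in amylin 5xFAD, 6.22, 6.01 and 6.14 in PBS 5xFAD, and 6.71, 6.54 and 6.64 in WT. All 5xFAD arrays were below WT. It fell by 0.51 ± 0.07 in PBS 5xFAD against WT, 1.42-fold lower (adjusted p = 0.00304). Of 11 hippocampal markers 10 fell as well, with a median of -1.16. Pde1c, which was not called and is shown in full because of its values, read 6.71, 6.53 and 6.77 in amylin 5xFAD, 6.94, 6.34 and 6.65 in PBS 5xFAD, and 6.30, 6.18 and 6.19 in WT. Its difference of PBS 5xFAD from WT, 0.42 ± 0.13, had an adjusted p of 0.0844, and the second PBS 5xFAD array lay nearest to WT. Within the Pde4 genes 1 of 4 was called, with Pde4a, Pde4c and Pde4d at -0.11, 0.01 and -0.02. Pde4d has 2 further single-gene probe sets, with differences of 0.21 and -0.12, so its probe sets disagree in sign. The one at 0.21 had a low mean of 3.84 over the 9 arrays, beside 6.90 for the one at -0.12 and 9.21 for the one used. The photoreceptor genes Pde6a, Pde6b, Pde6c, Pde6g and Pde6h stayed between -0.05 and 0.03, with 0 of 5 called at adjusted p 0.663 or above and 0 at an unadjusted p under 0.05. Pde2a, a cGMP-stimulated enzyme, differed by 0.15 ± 0.07 (adjusted p = 0.245). The remaining genes Pde1a, Pde3a, Pde5a, Pde6d (a chaperone of lipid-modified proteins rather than a catalytic subunit), Pde7a, Pde8a and Pde9a differed by -0.19 to 0.03, and Pde4dip differed by -0.06.

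**Figure D2:**
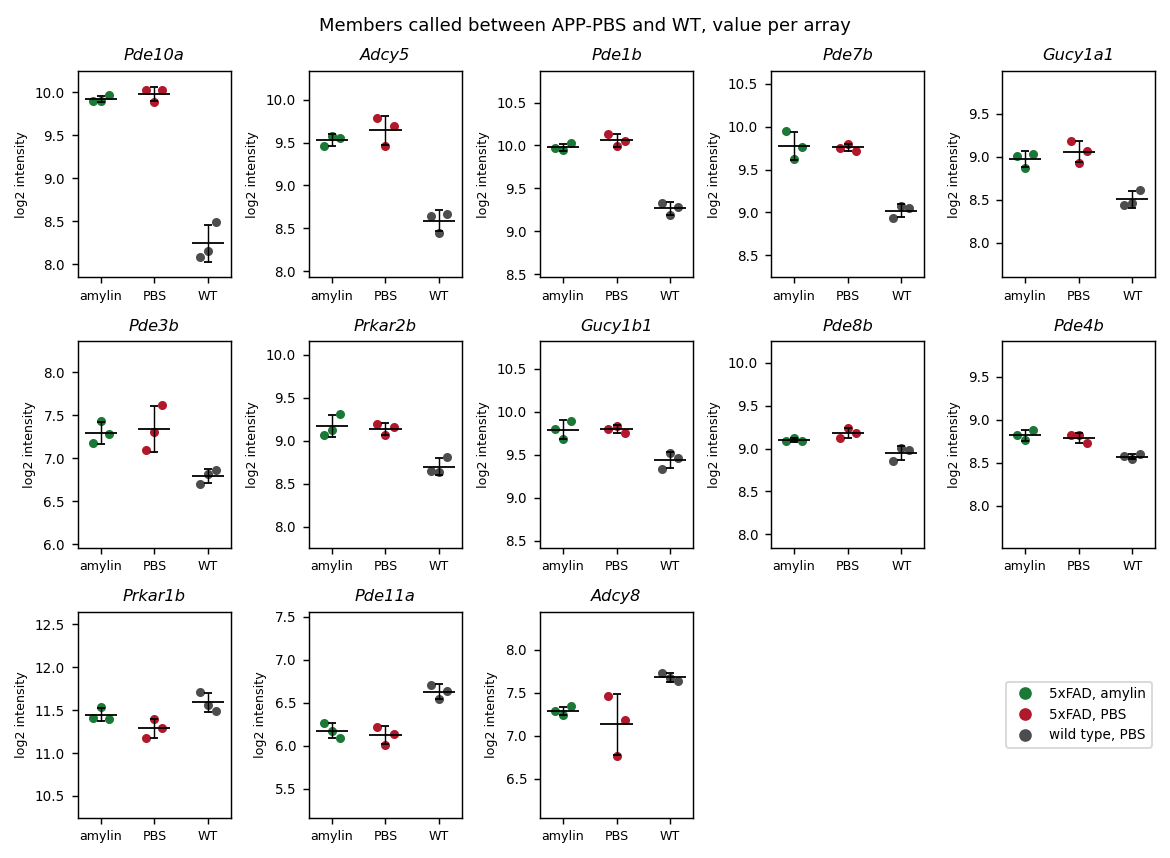
Log2 intensity of the 13 members called between PBS 5xFAD and WT, with 1 point per array, the group mean as a line and the SD as a bar. Panels differ in level and share the same span of log2 units. For each gene the WT arrays lie wholly above or wholly below the PBS 5xFAD arrays.

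Of the 7 kinase subunits 1 rose and 1 fell in PBS 5xFAD against WT, and both are regulatory subunits of protein kinase A. Prkar2b, a regulatory subunit of brain and fat tissue, read 9.07, 9.13 and 9.31 in amylin 5xFAD, 9.19, 9.06 and 9.16 in PBS 5xFAD, and 8.65, 8.63 and 8.81 in WT. Prkar1b, a regulatory subunit found chiefly in neurons, read 11.41, 11.53 and 11.40 in amylin 5xFAD, 11.18, 11.39 and 11.29 in PBS 5xFAD, and 11.71, 11.56 and 11.49 in WT. The PBS 5xFAD arrays lay above all WT arrays for Prkar2b and below them for Prkar1b, and the amylin 5xFAD arrays overlapped with WT for Prkar1b. In PBS 5xFAD against WT, Prkar2b rose by 0.44 ± 0.08, 1.35-fold (adjusted p = 0.00826). Prkar1b fell by 0.30 ± 0.08, 1.23-fold lower (adjusted p = 0.0388), and this call was lost without any WT array, without the first or the third PBS 5xFAD array or without the third amylin 5xFAD array (adjusted p from 0.0512 to 0.144). Prkg2, a membrane-bound cGMP-dependent kinase, read 6.73, 6.89 and 6.82 in amylin 5xFAD, 6.81, 6.44 and 6.80 in PBS 5xFAD, and 6.87, 6.81 and 6.85 in WT, with a difference of PBS 5xFAD from WT of -0.16 ± 0.09 (adjusted p = 0.396). Prkacb, Prkar1a, Prkar2a and Prkg1 differed by -0.10 to -0.03. The probe set that Prkaca shares with Samd1, which was not tested, averaged 7.89 ± 0.11 in amylin 5xFAD, 7.86 ± 0.08 in PBS 5xFAD and 8.07 ± 0.10 in WT.

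The counts of members depended on single arrays. Without the first WT array 6 members rose in PBS 5xFAD in place of 10, while the genes called in either direction over the whole array numbered 863 in place of 1710. The number that fell was 1 in place of 3 without any 1 of the WT arrays, the third amylin 5xFAD array or the third PBS 5xFAD array. Adcy5, Gucy1a1, Pde10a, Pde1b, Pde7b and Prkar2b passed with any array left out and under every other alternative fit, and so did Pde11a except where the lowest 50% of genes were left out, which removes it.

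Region markers moved along with the members that led the list. Both were chosen with earlier results of these data known, so the marker counts are no separate evidence. All 11 measured striatal markers rose in PBS 5xFAD against WT, with a median difference of 1.47, and their mean per array was 8.64 to 8.82 in amylin 5xFAD, 8.66 to 8.90 in PBS 5xFAD and 7.21 to 7.44 in WT. Of 11 hippocampal markers 10 fell (median -1.16), with array means of 5.98 to 6.12 in amylin 5xFAD, 5.95 to 6.09 in PBS 5xFAD and 7.03 to 7.12 in WT. All 12 thalamic markers fell (median -0.90), with array means of 7.08 to 7.70 in amylin 5xFAD, 7.25 to 7.42 in PBS 5xFAD and 8.17 to 8.42 in WT. Among the WT arrays the third had the highest striatal mean (0.10 above the WT average) and the highest Pde10a (0.25 above), while the lowest striatal mean was in the second array and the lowest Pde10a in the first. RMA values do not reach 0 and no detection calls were used, so absence of a marker cannot be read from them. The part of these marker differences in the changes of Pde10a, Adcy5, Pde1b, Pde7b, Pde11a and Adcy8 was not tested.

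Markers of cell types differed between the groups too. For the counts below, 21.2% of all genes stood at an unadjusted limma p under 0.05 in PBS 5xFAD against WT. Microglial markers rose in 12 of 13 cases (median 1.41), with array means of 8.23 to 8.75 in amylin 5xFAD, 8.40 to 8.97 in PBS 5xFAD and 7.30 to 7.33 in WT. Cortical projection neuron markers fell in 3 of 10 cases and rose in 0, with array means of 8.98 to 9.02 in amylin 5xFAD, 8.81 to 9.13 in PBS 5xFAD and 8.98 to 9.15 in WT. Olfactory bulb markers had a median difference of 0.87 with 0 of 10 called and 6 at an unadjusted p under 0.05, and their array means ran from 6.66 to 7.59 in amylin 5xFAD, from 6.27 to 7.74 in PBS 5xFAD and from 5.99 to 6.33 in WT. The first PBS 5xFAD array had the highest olfactory bulb mean, the highest Pde1c and the lowest Adcy1, and the second PBS 5xFAD array had the lowest olfactory bulb mean and the lowest Pde1c of the 5xFAD arrays. The part of either in Pde1c and Adcy1 was not tested. In PBS 5xFAD against WT, 1 of 8 astrocyte markers rose and 1 fell, with 4 at an unadjusted p under 0.05. Of 7 oligodendrocyte markers 1 fell, with 4 at an unadjusted p under 0.05, and in amylin 5xFAD against WT 5 fell (median -0.44). Of 6 endothelial markers 1 rose, with 5 at an unadjusted p under 0.05 and a median of 0.24 in PBS 5xFAD. Among 8 smooth muscle and pericyte, 8 interneuron and 10 photoreceptor markers 0 were called, and 1, 1 and 0 of them stood at an unadjusted p under 0.05.

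**Figure D3:**
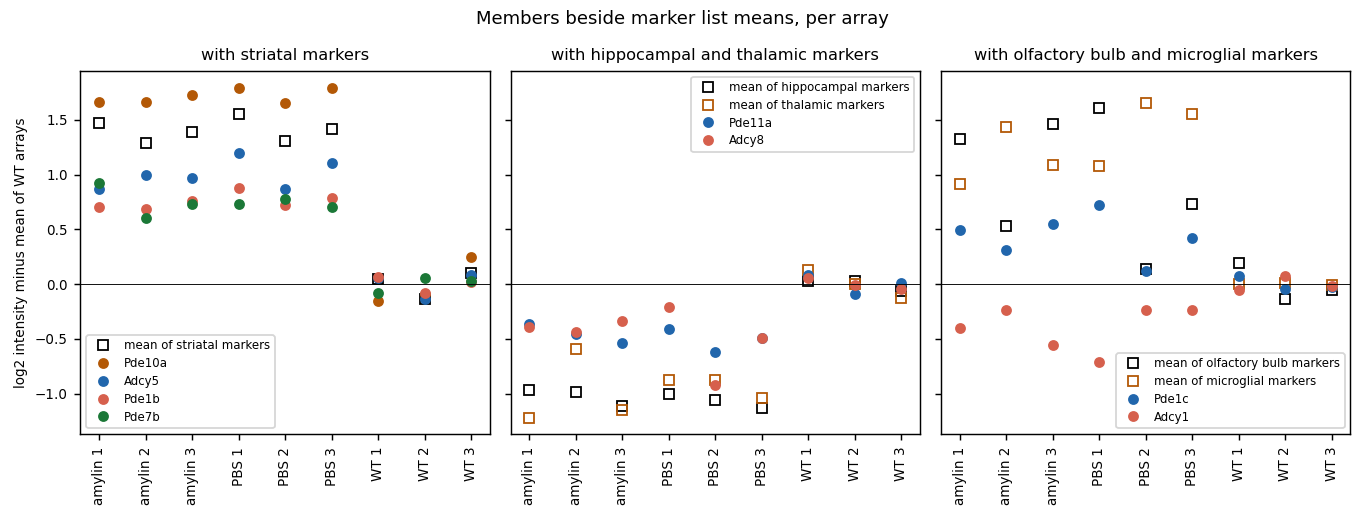
Log2 intensity minus the mean of the WT arrays, for each of the 9 arrays, with members as filled circles and the mean of a marker list as open squares. Pde10a lay above the striatal mean in each 5xFAD array, Adcy8 was lowest in the second PBS 5xFAD array, and Pde1c was highest in the first.

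Against WT, amylin 5xFAD gave 9 members that rose and 1 that fell. The background here was 2.35% of all genes higher and 2.86% lower. In the same comparison 11 of 11 striatal markers rose, 10 of 11 hippocampal and 12 of 12 thalamic markers fell, 11 of 13 microglial markers rose, 5 of 7 oligodendrocyte markers fell and 2 of 10 olfactory bulb markers rose, and their part in the members' changes was not tested. Both 5xFAD groups are set against the same WT arrays, so the values are given side by side and the sharing of calls is no separate evidence. Pde10a rose by 1.68 (3.21-fold, adjusted p = 7.28e-05) in amylin 5xFAD and by 1.74 in PBS 5xFAD. Adcy5 rose by 0.94 (1.92-fold, adjusted p = 0.000742) in amylin 5xFAD and by 1.06 in PBS 5xFAD. The increases of Pde1b were 0.71 in amylin 5xFAD and 0.79 in PBS 5xFAD, and those of Pde7b 0.76 in amylin 5xFAD and 0.74 in PBS 5xFAD.

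Among the members with smaller differences, Gucy1a1 rose by 0.47 in amylin 5xFAD (adjusted p = 0.0103) and Gucy1b1 by 0.35 (adjusted p = 0.0193). Prkar2b rose by 0.47 (adjusted p = 0.00867), Pde3b by 0.51 (adjusted p = 0.0453) and Pde4b by 0.25 (adjusted p = 0.0242). Pde11a fell by 0.45 (adjusted p = 0.00832). Called in PBS 5xFAD but not in amylin 5xFAD were Adcy8 (-0.39, adjusted p = 0.165), Pde8b (0.15, adjusted p = 0.173) and Prkar1b (-0.14, adjusted p = 0.356), and no member was called in amylin 5xFAD alone. For these 3 genes the direct difference of amylin 5xFAD from PBS 5xFAD did not pass the test either. Without the first WT array 5 members rose in amylin 5xFAD in place of 9, while 447 genes over the whole array were called in place of 1039, and without the second amylin 5xFAD array, or the first or second PBS 5xFAD array, 2 fell in place of 1. Gucy1a1 (adjusted p = 0.054 without the first WT array), Gucy1b1 (0.0584 to 0.084 without the first or the third WT or the third amylin 5xFAD array), Pde3b (0.0573 to 0.174 without any WT, any amylin 5xFAD or the second PBS 5xFAD array) and Pde4b (0.063 to 0.0888 without any WT or the third amylin 5xFAD array) lost their calls, while Adcy8 gained one without the second PBS 5xFAD array (0.0234).

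The direct comparison of amylin 5xFAD with PBS 5xFAD sets injections of the hormone against saline in 5xFAD mice. No member was called (0 of 51, smallest limma adjusted p = 0.675), nor was any under the alternative fits, and 0.00502% of all genes, a single gene, was called. At an unadjusted p under 0.05 stood 2 members, 3.92% of them, where 6.9% of all genes did. The arrays of the groups did not overlap for 4 members, 7.84%, where 9.3% of all genes had groups apart. Both shares of the members were below the background. Differences ran from -0.17 (Pde8a) to 0.23 (Prkar2a), with 30 of 51 means higher in amylin 5xFAD and a median of 0.03. Cell type markers differed in this comparison too, with 0 microglial and 0 oligodendrocyte markers called. Means in amylin 5xFAD were lower for 13 of 13 microglial markers, with a median of -0.22. They were lower for 6 of 7 oligodendrocyte markers and higher for 1, with a median of -0.19. In both of these lists 3 markers stood at an unadjusted limma p under 0.05. Means were higher in amylin 5xFAD for 9 of 10 olfactory bulb markers and lower for 1, with a median of 0.30. They were higher for 6 of 8 interneuron markers and lower for 2, with a median of 0.12. Of these olfactory bulb and interneuron markers 0 were called, and 0 and 1 stood at an unadjusted limma p under 0.05. The part of these markers in the members' differences was not tested.

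Prkar2a, a widely expressed regulatory subunit of protein kinase A, had the smallest p. It read 8.57, 8.71 and 8.62 in amylin 5xFAD, 8.50, 8.22 and 8.48 in PBS 5xFAD, and 8.51, 8.47 and 8.53 in WT. All amylin 5xFAD arrays were above all others, and the second PBS 5xFAD array was the lowest. Its difference of amylin 5xFAD from PBS 5xFAD was 0.23 ± 0.08 (adjusted p = 0.675). Pde8a, a cAMP-specific enzyme, read 7.39, 7.67 and 7.61 in amylin 5xFAD, 7.68, 7.71 and 7.78 in PBS 5xFAD, and 7.90, 7.85 and 7.77 in WT. The amylin 5xFAD arrays were the lowest, with a difference from PBS 5xFAD of -0.17 ± 0.08 (adjusted p = 0.721). Pde4dip, the other member at an unadjusted p under 0.05, differed by 0.11 ± 0.05 (adjusted p = 0.721). Prkar1b and Adcy3 were the other members without overlap, at 0.16 ± 0.08 and 0.12 ± 0.06, both higher in amylin 5xFAD. The means of all 7 kinase subunits were higher in amylin 5xFAD, by 0.03 (Prkar2b) to 0.23, and none was called. Over all 19938 genes, 10037 had a higher mean. Within PBS 5xFAD the second array was the lowest for Prkar2a, Prkar2b, Prkg1 and Prkg2, and the first for Prkacb, Prkar1a and Prkar1b. These genes were read on the same arrays, so they are no separate replicates.

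The 13 members called between PBS 5xFAD and WT differed by -0.11 (Adcy5) to 0.16 (Prkar1b) between amylin 5xFAD and PBS 5xFAD, a comparison that uses the same PBS 5xFAD arrays that chose them. The 95% interval of the difference was -0.28 to 0.16 for Pde10a, -0.32 to 0.09 for Adcy5, -0.21 to 0.05 for Pde1b and -0.16 to 0.20 for Pde7b. For Adcy8 it was -0.16 to 0.47 and for Pde11a -0.11 to 0.22. Over the 51 members the interval bounds lay between -0.34 and 0.47 on the log2 scale. The values therefore do not show that amylin left these genes as they were.

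**Figure D4:**
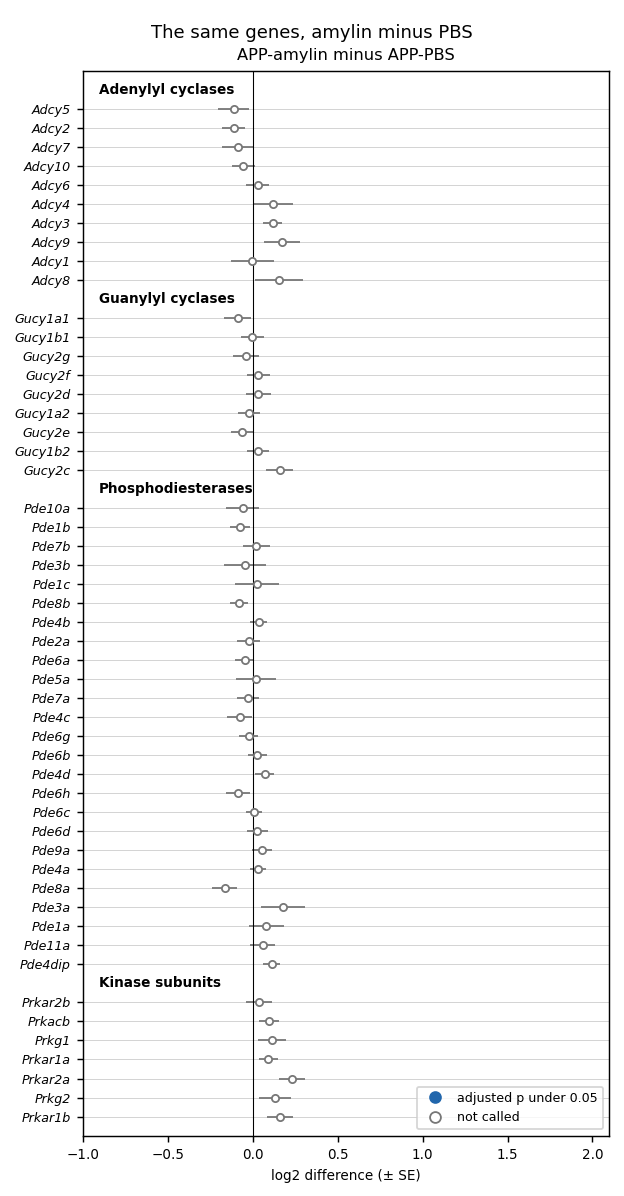
Log2 difference ± SE of each of the 51 members in amylin 5xFAD minus PBS 5xFAD, in the same order and on the same scale as the differences from WT. All points are open because no member was called, and they lie between -0.17 and 0.23.

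Genes next to the enzymes in the pathway were described from 6 lists. Of 10 measured genes in the list of G protein subunits, 3 rose in PBS 5xFAD against WT and 0 fell. Over all genes 3.66% rose and 4.92% fell in that comparison, and 2.35% rose and 2.86% fell in amylin 5xFAD against WT, and with lists of 5 to 17 genes a single call is a large share. Gng7, the gamma subunit that pairs with the olfactory-type alpha subunit in striatum, averaged 9.50 ± 0.13 in amylin 5xFAD, 9.65 ± 0.20 in PBS 5xFAD and 8.68 ± 0.13 in WT, and rose by 0.97 ± 0.11 in PBS 5xFAD (adjusted p = 0.0009). Gnal, that alpha subunit, rose by 0.51 ± 0.12 (adjusted p = 0.028), and Gnb5, the beta subunit that partners regulators of G protein signalling, by 0.32 ± 0.05 (adjusted p = 0.00338). In amylin 5xFAD against WT, Gng7 and Gnb5 were called. Gnas, which encodes the common stimulatory alpha subunit, has no probe set of its own here.

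Among 12 protein kinase A substrates and CREB factors 3 rose and 0 fell in both 5xFAD groups against WT. Ppp1r1b, the dopamine-regulated phosphatase inhibitor that is also in the striatal list, averaged 9.48 ± 0.04 in amylin 5xFAD, 9.58 ± 0.14 in PBS 5xFAD and 7.94 ± 0.20 in WT. It was 3.13-fold higher in PBS 5xFAD than in WT (adjusted p = 4.24e-05). The cAMP-regulated phosphoproteins Arpp19 and Arpp21 rose by 0.61 ± 0.09 (adjusted p = 0.00409) and 0.38 ± 0.08 (adjusted p = 0.019) in PBS 5xFAD. Of 17 anchors and inhibitors of the kinase 3 rose and 0 fell: the anchoring proteins Akap5 by 0.39 ± 0.10 (adjusted p = 0.0369) and Akap9 by 0.37 ± 0.07 (adjusted p = 0.0104), and the inhibitor Pkig by 0.36 ± 0.07 (adjusted p = 0.017). In amylin 5xFAD against WT the called genes of this list were Akap5, Akap9 and the inhibitor Pkia (0.29, adjusted p = 0.0233).

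Genes of the nitric oxide and natriuretic peptide arm fell in 2 of 12 cases (16.7%) in both 5xFAD groups and rose in 0, beside 4.92% of all genes lower in PBS 5xFAD and 2.86% in amylin 5xFAD. In PBS 5xFAD against WT, Npr3, the receptor that clears natriuretic peptides, fell by 0.55 ± 0.08 (adjusted p = 0.00362), and Nppc, which encodes C-type natriuretic peptide, fell by 0.26 ± 0.07 (adjusted p = 0.0442). Of 13 other receptors of cyclic nucleotides (channels, exchange factors and Popeye proteins), 1 fell (7.69%) and 0 rose in PBS 5xFAD against WT, a share near the 4.92% of all genes. Popdc3, a Popeye protein that binds cAMP, fell by 0.52 ± 0.10 (adjusted p = 0.0135). In amylin 5xFAD the channel Hcn2 fell too, by 0.38 (adjusted p = 0.0408). Of 5 genes for PACAP (a neuropeptide that raises cAMP), the related peptide VIP and their receptors, Adcyap1, which encodes PACAP, fell by 0.30 ± 0.07 in PBS 5xFAD (adjusted p = 0.039) and none was called in amylin 5xFAD. Between amylin 5xFAD and PBS 5xFAD 0 genes of the 6 lists were called, and 1, the inhibitory alpha subunit Gnai1 (0.15 ± 0.05), stood at an unadjusted p under 0.05. List medians in PBS 5xFAD against WT were 0.09 for the G proteins, 0.02 for the substrates, 0.00 for the anchors, -0.04 for the nitric oxide and natriuretic arm, -0.07 for the other receptors and -0.17 for PACAP, beside -0.01 over all genes. The part of the regional marker differences in these genes was not tested.

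The calls of these pathway genes in PBS 5xFAD held unequally when 1 array was left out. Gng7, Gnb5, Ppp1r1b, Arpp19, Npr3 and Akap9 stayed called in every such fit. Gnal (without the first or second WT, or the first or the third PBS 5xFAD array), Arpp21 (the second WT or any PBS 5xFAD array), Pkig (the first or second WT, or the first or the third PBS 5xFAD array) and Popdc3 (the first or the third WT, or the third PBS 5xFAD array) lost their calls at adjusted p from 0.0517 to 0.0951. Akap5 (the first or second WT, any PBS 5xFAD or the third amylin 5xFAD array), Nppc (any WT, any PBS 5xFAD or the first amylin 5xFAD array) and Adcyap1 (all arrays but the third WT) lost theirs, at adjusted p up to 0.145.

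**Figure D5:**
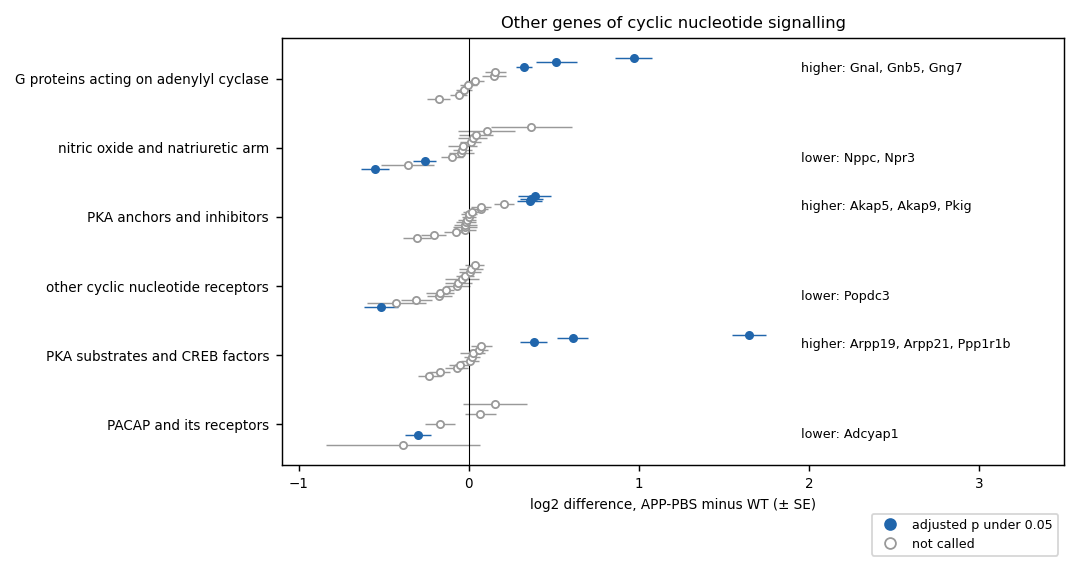
Log2 difference ± SE in PBS 5xFAD minus WT of the measured genes of 6 pathway lists, 1 point per gene. Filled points passed an adjusted p of 0.05 and are named at the right, and Ppp1r1b, at 1.65, is the farthest from 0.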

How the data were processed

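Each of 9 mouse brain RNA samples was measured on 1 Affymetrix gene array. The deposited values are log2 intensities of 35556 probe sets, made by the authors with RMA in the R package oligo, per the submitters' processing notes; versions and the build of the array annotation are not given in the sources used here. Of the probe sets 21789 name 1 gene, 1621 several and 12146 none. For each gene the single-gene probe set with the highest mean over the 9 arrays was used, which left 19938 genes, with no filter on low signal. Names were checked against RefSeq genes of GRCm38.p6 (21698 probe sets matched, 0 symbols changed).

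Groups came from the sample titles. All genes were fitted at once with limma 3.58.1 in R 4.3.3 (group means, 3 contrasts, an untrended empirical Bayes prior worth 3.53 degrees of freedom beside 6 of the residuals), with Benjamini-Hochberg adjustment over all genes; the fit was tested on simulated data. No members' list was tested as a set.

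Values per array are given for every called member and, in each class, for those with the 3 smallest p in PBS 5xFAD against WT and the 2 smallest p in amylin 5xFAD against PBS 5xFAD; Pde1c was added after its values were seen, and other members are given by counts and differences. The members and the 6 pathway and 12 marker lists were chosen with earlier results of these data known. Deviations of samples with the same number had correlations from -0.06 to 0.18, beside -0.23 to 0.13 for samples with different numbers. Samples with the same number are not known to be pairs, and the main fit did not take them as pairs. Alternatives were another normalization or centring, filters on low signal, another prior, array weights, fits of the compared groups alone, a replicate block, other uses of a gene's probe sets, other thresholds and leaving out each array.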

Additional observations from a re-analysis of the deposited data

How the results depend on the processing

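Of the log2 differences of single genes, 54 were refitted under up to 19 alternatives: 927 values kept direction and side of the threshold, 87 lost a call, 7 gained one and 0 reversed. Against WT, 10 members rose and 3 fell in PBS 5xFAD, and 9 rose and 1 fell in amylin 5xFAD. With 1 array left out, 6 to 10 rose and 1 to 4 fell in PBS 5xFAD, and 5 to 10 rose and 1 to 2 fell in amylin 5xFAD; over all genes the calls ranged from 863 to 1779 and from 447 to 1086 in these fits. With only the groups compared in the fit, 1 member fell in PBS 5xFAD and 2 in amylin 5xFAD, which uses fewer samples for the spread. In amylin 5xFAD 2 also fell at an adjusted p under 0.1, with quantile normalization repeated, without the lowest 25% of genes, and with a trended and robust prior; the cause was not tested. Between amylin 5xFAD and PBS 5xFAD 0 members were called under any of these. The samples with the same number are not known to be pairs, and the correlations of their deviations were 0.09, 0.18 and 0.06 for PBS 5xFAD with WT, 0.10, 0.13 and 0.12 for amylin 5xFAD with PBS 5xFAD, and -0.06, -0.05 and 0.14 for amylin 5xFAD with WT. Between samples of different numbers and groups the correlations ran from -0.23 to 0.13. With the replicate block 10 members rose and 4 fell in PBS 5xFAD, and 10 rose and 1 fell in amylin 5xFAD. Probe sets with several genes, cell numbers and protein or nucleotide levels were not analysed here, and 3 arrays a group limit what could be called.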
